A study of Homo sapiens with 36 samples.

Results

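The autophagy and lysosome genes described here are a list of 40 genes, out of the 57820 gene identifiers counted, whose transcripts were followed through the 12 conditions of the study. The list was given by name and holds autophagy genes, the MiT/TFE transcription factors and lysosomal genes. It was not chosen by a threshold on these data, but earlier results of these data were known when it was chosen. The shares of members called below are therefore descriptive. The transcriptome of A2780, a cell line from a human ovarian carcinoma, was sequenced in 3 forms. The wt cells are the platinum-sensitive parental line, the cis cells are a cisplatin-resistant derivative, and the cis SSP cells grew out of cis cells kept without serine and glycine. Each form was sequenced in complete medium (wt, cis, cis SSP), with carboplatin (carbo), without serine and glycine (-SG), and with both changes (-SG carbo), in 3 libraries per condition and 36 in all. The labels give the carboplatin dose as 6 with a unit whose prefix is lost. The study used 6 µM in growth assays of wt and cis cells and states no dose for the sequenced cells. It reports that more carboplatin was needed to inhibit cis than wt cells, so the same dose need not act equally on both lines. The methods of the study place experiments at day 5 by default, with no separate time given for the sequenced cells. The cis SSP cells are 1 derived population, and the legends of the study call the 3 libraries per condition technical replicates, so p-values measure the spread between libraries and not between independent cultures. The question put to the data was whether deprivation of serine and glycine and the drug raise these genes alike.

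Autophagy is the pathway in which cytoplasm or chosen cargo is enclosed by a double membrane, the autophagosome, and delivered to the lysosome for breakdown. The ULK1 kinase complex starts it, a class III phosphatidylinositol 3-kinase complex marks the growing membrane, conjugation enzymes attach ATG8 proteins (LC3 and GABARAP) to that membrane, and cargo receptors such as SQSTM1 (p62) tie cargo to ATG8 proteins. When amino acids are plentiful, the kinase complex mTORC1 restrains both the ULK1 complex and TFEB, a transcription factor of the MiT/TFE family that binds the E-box containing CLEAR element of many lysosomal and autophagy genes. Transcript levels do not measure autophagic flux, much of which is set by phosphorylation and protein turnover.

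Promoter sequences (250 bases before to 50 after the transcript start, RefSeq, GRCh38.p14) were given for 34 of the 40 genes, as 44 promoters because 7 genes had several. The E-box core CACGTG was searched on both strands, as exact letters, because MiT/TFE factors bind it. It lay in 4 of the 44 promoters, those of ATG14, ATG3, CTSD and LAMP1, against 7.26% of all 35116 promoters of the table. Its 8-base CLEAR form TCACGTGA, which contains the E-box core, lay in those of ATG3 and LAMP1, against 0.98% of all promoters. These matches are a description of the letters in the window. The 4 promoters are printed here with the E-box or CLEAR core in capitals. In wt cells the transcripts of ATG14, CTSD and LAMP1 rose with deprivation and with carboplatin, while that of ATG3 fell with both. In cis cells deprivation raised ATG14 and CTSD, lowered ATG3 and left LAMP1 not called. Of these genes only ATG3 was called with carboplatin in cis cells, as lower, and some fits that left out 1 library lost that call. Counts of ATG3 and ATG14 are uncertain for a reason given below. The promoter of GABARAPL1 is shown in lower case as it held neither element. With all libraries kept, GABARAPL1 was the one member called higher with carboplatin in all 3 lines. Its call in cis cells was lost in every fit that left out 1 library. Without the outlying cis SSP libraries described below, SQSTM1, MAP1LC3B, TFE3, ATG13 and ATG4B were also called higher with carboplatin in all 3 lines.
ATG14 (chr14:55411781-55412080, minus strand): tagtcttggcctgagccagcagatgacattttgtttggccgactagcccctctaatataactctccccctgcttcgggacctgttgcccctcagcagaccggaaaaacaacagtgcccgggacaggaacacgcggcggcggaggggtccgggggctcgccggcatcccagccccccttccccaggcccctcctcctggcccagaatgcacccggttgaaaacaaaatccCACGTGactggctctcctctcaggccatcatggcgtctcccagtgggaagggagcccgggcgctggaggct
ATG3 (chr3:112561913-112562212, minus strand): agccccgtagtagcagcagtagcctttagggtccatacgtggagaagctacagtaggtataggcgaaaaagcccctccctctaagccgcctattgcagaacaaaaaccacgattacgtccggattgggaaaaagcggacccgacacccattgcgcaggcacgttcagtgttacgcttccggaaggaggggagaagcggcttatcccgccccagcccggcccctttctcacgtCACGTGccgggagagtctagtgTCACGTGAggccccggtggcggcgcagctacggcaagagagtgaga
CTSD (chr11:1763878-1764177, minus strand): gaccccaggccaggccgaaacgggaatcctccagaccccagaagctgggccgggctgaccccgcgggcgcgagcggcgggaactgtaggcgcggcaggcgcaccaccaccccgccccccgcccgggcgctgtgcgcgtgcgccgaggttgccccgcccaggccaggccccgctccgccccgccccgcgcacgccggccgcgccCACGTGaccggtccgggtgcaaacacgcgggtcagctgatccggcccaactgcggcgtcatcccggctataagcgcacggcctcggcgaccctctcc
LAMP1 (chr13:113296989-113297288, plus strand): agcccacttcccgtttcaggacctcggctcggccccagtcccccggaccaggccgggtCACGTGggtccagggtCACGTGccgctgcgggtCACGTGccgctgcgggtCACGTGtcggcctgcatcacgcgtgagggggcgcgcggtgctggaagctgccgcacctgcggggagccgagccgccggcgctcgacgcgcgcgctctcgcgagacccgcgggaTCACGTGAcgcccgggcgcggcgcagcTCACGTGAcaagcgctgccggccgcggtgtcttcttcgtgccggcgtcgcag
GABARAPL1 (chr12:10212627-10212926, plus strand): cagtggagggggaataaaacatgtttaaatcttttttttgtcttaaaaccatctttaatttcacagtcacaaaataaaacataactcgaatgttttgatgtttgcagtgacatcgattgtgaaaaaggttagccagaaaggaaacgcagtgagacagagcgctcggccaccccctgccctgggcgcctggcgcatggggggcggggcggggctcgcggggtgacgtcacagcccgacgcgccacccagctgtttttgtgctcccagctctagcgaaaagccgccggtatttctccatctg
The LAMP1 window held 6 copies of the E-box core, of which those at bases -28 and -1 from the start (the first transcribed base being 1) were the middle of CLEAR cores. In ATG3 the copies began at bases -18 and 6, and in CTSD and ATG14 the single copy began at bases -47 and -21.

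Total counts on genes were 13074937 to 20441582 per library. Library 25 of the cis SSP condition stood apart, with a mean chi-square per gene of 118 and 103 against libraries 26 and 27, which differed by 7.4. Library 32 of cis SSP -SG also did, with 123 and 110 against libraries 31 and 33, which differed by 2.74. Results in cis SSP cells are therefore given with and without libraries 25 and 32. Libraries 23 and 24 of cis -SG carbo had 17.9% and 14.9% of their reads on no feature, against at most 9.31% elsewhere. As a check of the cell type, the mesenchymal marker VIM was at 1517 to 4599 CPM (counts scaled to a common library size, with TMM factors over the 36 libraries). CDH2, the other mesenchymal marker, ran from 9.65 to 1403 CPM (median 199.9). Their sum was 3239 to 3343 CPM in untreated wt, 1804 to 1983 CPM in untreated cis and 3186 to 3897 CPM in untreated cis SSP libraries. Of the 8 epithelial markers EPCAM and PAX8 did not exceed 2.26 and 0.612 CPM, and KRT7 was at 0 in 35 libraries. KRT18 (median 14 CPM), KRT19 and KRT8 reached 44.1, 7.74 and 6.45 CPM. The epithelial list summed to 1.83 to 2.39 CPM in untreated wt, 16.7 to 19.9 CPM in untreated cis and 9.69 to 15.9 CPM in untreated cis SSP libraries. Leukocyte and endothelial markers summed to at most 0.48 and 0.411 CPM. The fibroblast list, carried by COL1A1 and COL1A2, summed to 512 to 1752 CPM in wt, 2.09 to 5.79 CPM in cis and 36 to 51.1 CPM in cis SSP libraries. The part of the mesenchymal, epithelial and fibroblast lists in the differences between lines was not tested. Library 11 of wt -SG carbo also stood somewhat apart, with a mean chi-square per gene of 25.6 and 24.6 against libraries 10 and 12, which differed from each other by 1.2. Each difference below is a log2 fold change with its standard error (SE) from edgeR's quasi-likelihood test, called at a Benjamini-Hochberg adjusted p-value under 0.05 over all genes tested. In bulk RNA, a change in every cell and a change in the share of cells that express a gene cannot be told apart.

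In untreated cells the levels of the members spanned several orders of magnitude. Per kilobase of transcript, a scale that allows genes to be compared, LAMP1, a major glycoprotein of the lysosomal membrane, was highest in wt cells at 95.6 CPM per kb, followed by the ATG8 protein GABARAPL2 at 71.6 and the lysosomal protease CTSB at 48.5. In cis cells LAMP1 led at 58.7 CPM per kb with VMP1, an endoplasmic reticulum protein needed for autophagosome formation, next at 57.7. MITF, the melanocyte-lineage relative of TFEB, was lowest in wt cells at 0.0826 CPM per kb. TFEB and TFE3 lay at 3.97 and 4.07 CPM per kb in wt cells. In the 3 untreated conditions 5 or 6 of the 40 genes had a mean of 100 CPM or more, and 6 to 8 were under 10 CPM.

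**Figure D1:**
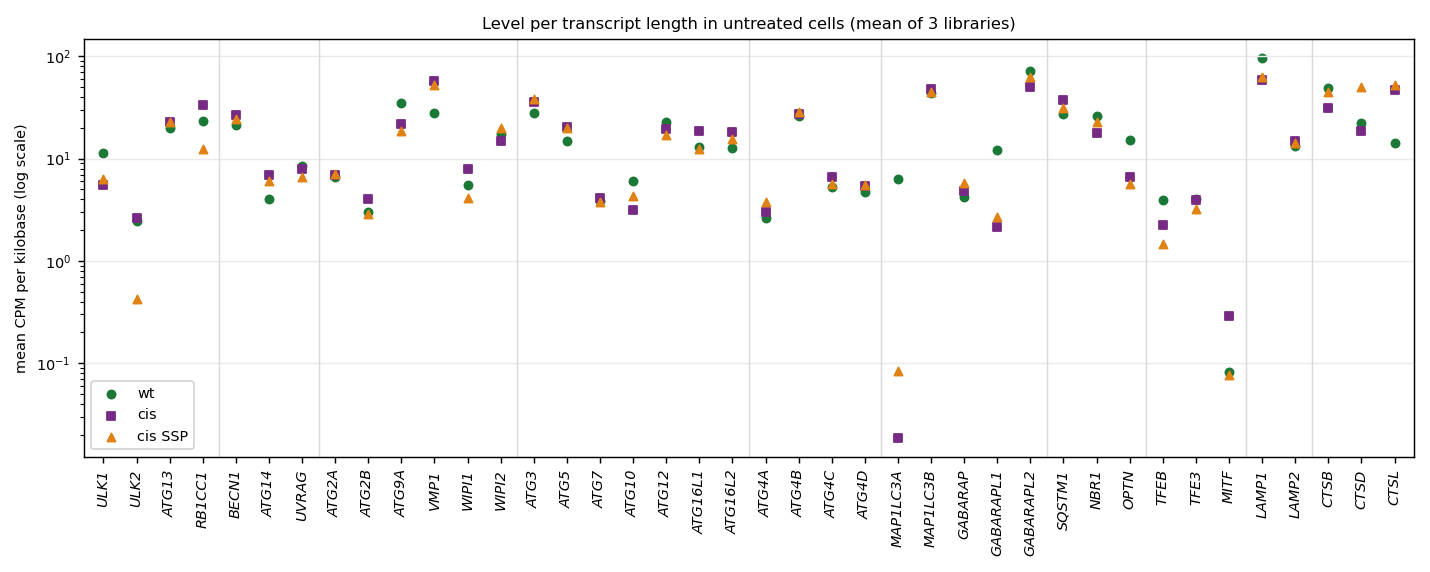
Mean CPM per kilobase of transcript (log axis) of the 40 genes in untreated wt, cis and cis SSP cells, ordered by role with grey lines between roles. Most genes lie close together in the 3 lines, while MAP1LC3A is near 0 in cis and cis SSP cells, GABARAPL1 is lower in both, and ULK2 is lower in cis SSP cells.

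Deprivation raised most called members in wt cells, by small amounts. Of 39 members tested in wt -SG against wt cells, 22 rose, 5 fell and 12 were not called, where 24.1% of all genes tested were called higher and 25.1% lower. The median log2 fold change of the members was 0.16, against 0.0085 over all genes, and no member passed an absolute value of 1. All 4 genes of the initiation complex rose, as did the 3 cargo receptors, LAMP1 and LAMP2 and the 3 cathepsins. Among the 7 conjugation enzymes 3 rose and 2 fell, and of the 5 ATG8 genes 1 rose.

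The initiation kinase ULK1 (chromosome 12, 132379167 to 132407695, GRCh37) was at 57.5, 61.9 and 63.2 CPM in the wt libraries and at 86.7, 90.1 and 94.7 CPM in the wt -SG libraries. The groups did not overlap, and the log2 fold change was 0.58 (SE 0.0429, adjusted p = 7.18e-10). Its relative ULK2 rose by 0.25 (SE 0.0611, adjusted p = 0.00201) and the regulatory subunit ATG13 by 0.25 (SE 0.0352, adjusted p = 6.29e-06). GABARAPL1, an ATG8 protein (chromosome 12, 10365057 to 10375727), had the largest rise. It was at 23.5, 22.6 and 22.1 CPM in wt and at 41.9, 37.6 and 41.8 CPM in wt -SG libraries, a log2 fold change of 0.84 (SE 0.0579, adjusted p = 2.49e-10). The cargo receptor NBR1 (chromosome 17, 41322498 to 41363708) went from 119, 123 and 123 CPM to 197, 196 and 182 CPM, a log2 fold change of 0.67 (SE 0.0331, adjusted p = 1.73e-12). SQSTM1 (chromosome 5, 179233398 to 179265078), which carries ubiquitinated cargo and also binds KEAP1, was at 79.6, 76.8 and 76.5 CPM in wt and at 114, 107 and 114 CPM in wt -SG libraries. Its log2 fold change was 0.54 (SE 0.0366, adjusted p = 2.05e-10), with no overlap of the libraries.

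The other ATG8 genes were not called. MAP1LC3B (chromosome 16, 87417559 to 87438385), which encodes the LC3 form used as an autophagosome marker, was at 94.1, 98.4 and 92.7 CPM in wt and at 92.6, 88.9 and 92.2 CPM in wt -SG libraries, a log2 fold change of -0.05 (SE 0.0352, adjusted p = 0.287). The 5 members that fell were TFEB, ATG4C, ATG2A, ATG5 and ATG3. TFEB (chromosome 6, 41651716 to 41703997) was at 8.03, 9.82 and 9.97 CPM in wt and at 6.58, 7 and 7.07 CPM in wt -SG libraries. These groups did not overlap and the log2 fold change was -0.42 (SE 0.104, adjusted p = 0.00215). The lipid transfer protein gene ATG2A went from 41.6, 42.7 and 42.6 CPM to 36.6, 34.2 and 36.4 CPM, with -0.23 (SE 0.0476, adjusted p = 0.000414). ATG4C, a protease that processes ATG8 proteins, went from 14.9, 17.5 and 14 CPM to 13.4, 12 and 12.8 CPM, with -0.26 (SE 0.0863, adjusted p = 0.0160), and was not called without the second wt library (adjusted p = 0.133). Lysosomal genes rose slightly. LAMP1 (chromosome 13, 113951554 to 113977987) was at 254, 262 and 258 CPM in wt and 288, 291 and 289 CPM in wt -SG libraries, a log2 fold change of 0.18 (SE 0.0247, adjusted p = 5.12e-06). The aspartic protease CTSD (chromosome 11, 1773982 to 1785803) was at 45.5, 49.5 and 43.0 CPM and at 56.1, 60.8 and 64.7 CPM, with 0.40 (SE 0.0568, adjusted p = 2.66e-05). In 1 fit over all 36 libraries, which takes the spread from every condition, 14 members were called in place of 27.

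Carboplatin changed more members of the list in wt cells, in both directions. In wt carbo against wt cells 24 of 39 members rose, 10 fell and 5 were not called, where 38.9% of all genes tested were called higher and 39% lower. The median log2 fold change was 0.39 over the members and -0.00074 over all genes, and 5 members changed by more than 1. Marker lists moved with the drug in these libraries: the fibroblast list summed to 518 to 550 CPM in wt and 1599 to 1629 CPM in wt carbo libraries, and the epithelial list to 1.83 to 2.39 and 16.5 to 17.6 CPM, and their part in the result was not tested. All cargo receptors, TFEB and TFE3, both LAMP genes and the 3 cathepsins rose, with 4 of 5 ATG8 genes. By contrast, 5 of 7 conjugation enzymes fell, and of the initiation complex 1 rose and 2 fell.

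The largest rises were those of 2 cargo receptors. SQSTM1 was at 416, 427 and 413 CPM in the wt carbo libraries, all far above the wt libraries, and its log2 fold change was 2.45 (SE 0.0251). OPTN, a receptor known for clearing damaged mitochondria and bacteria (chromosome 10, 13141449 to 13180308), was at 54.2, 51.7 and 52.6 CPM in wt and at 235, 246 and 237 CPM in wt carbo libraries, a log2 fold change of 2.20 (SE 0.0297). For both genes the adjusted p was below the smallest number the computation can hold. GABARAPL1 was at 71.3, 70.3 and 72.4 CPM with carboplatin, a log2 fold change of 1.67 (SE 0.0473, adjusted p = 3.06e-164). ATG4A, a protease of GABARAP-type proteins, and CTSL, a cysteine protease of the lysosome, rose by 1.26 (SE 0.0979) and 1.21 (SE 0.05). MAP1LC3B, not called with deprivation, was at 146, 142 and 144 CPM and rose by 0.62 (SE 0.0287, adjusted p = 7.79e-81).

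TFEB was at 16.3, 13.6 and 13.9 CPM in the wt carbo libraries, all above those of wt cells, with a log2 fold change of 0.68 (SE 0.0857, adjusted p = 2.55e-14). TFE3, which acts on the same elements, was at 13.2, 13.4 and 13.5 CPM in wt and at 24, 23.2 and 24 CPM in wt carbo libraries, with 0.84 (SE 0.0695, adjusted p = 1.32e-30). LAMP1 was at 359, 351 and 343 CPM with 0.46 (SE 0.0210, adjusted p = 5.23e-83), and CTSD at 61.8, 63.9 and 63.9 CPM with 0.47 (SE 0.0415, adjusted p = 1.37e-27). TFEB, TFE3, both LAMP genes and the 3 cathepsins were higher in every wt carbo library than in any wt library.

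Of the 10 members that fell with carboplatin, 5 were conjugation enzymes (ATG3, ATG5, ATG10, ATG12 and ATG16L2) and the others were ULK1, ULK2, UVRAG, ATG9A and ATG4C. ATG3, the E2-like enzyme that passes ATG8 proteins to lipid, was at 43.3, 44.7 and 42.9 CPM in wt and at 22, 20.7 and 22.9 CPM in wt carbo libraries, a log2 fold change of -0.98 (SE 0.0537, adjusted p = 2.41e-61). ATG10, the E2-like enzyme for ATG12, was at 19.3, 18.9 and 17.2 CPM and at 10.9, 10.5 and 10.3 CPM, with -0.78 (SE 0.0784, adjusted p = 1.24e-21). Its exons overlap those of RPS23 on the other strand, which had 1525% of its counts, and the strand setting of the counting is not given in the sources used here. The exons of ATG3, ATG14 and ATG16L2 likewise overlap those of SLC35A5, FBXO34 and FCHSD2 on the other strand, which had 57.9%, 120.5% and 196.4% of their counts. Those of ATG4D, BECN1, ATG7 and ATG12 overlap KRI1, PSME3, VGLL4 and AP3S1 on the other strand, which had 824.5%, 526.2%, 140.8% and 86.4% of their counts. The values of all these members are uncertain without that setting. For other members such a neighbour had at most 37.8% (MGAT4B, for SQSTM1). ATG4C fell by 0.96 on the log2 scale (SE 0.0883, adjusted p = 3.40e-25), to 8.12, 7.79 and 7.63 CPM. ULK1 was at 54.3, 51.4 and 51.8 CPM, below every wt library, with -0.20 (SE 0.0406, adjusted p = 2.97e-06). ULK2 and UVRAG, a BECN1 partner, fell by 0.60 (SE 0.0694) and 0.75 (SE 0.0523).

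**Figure D2:**
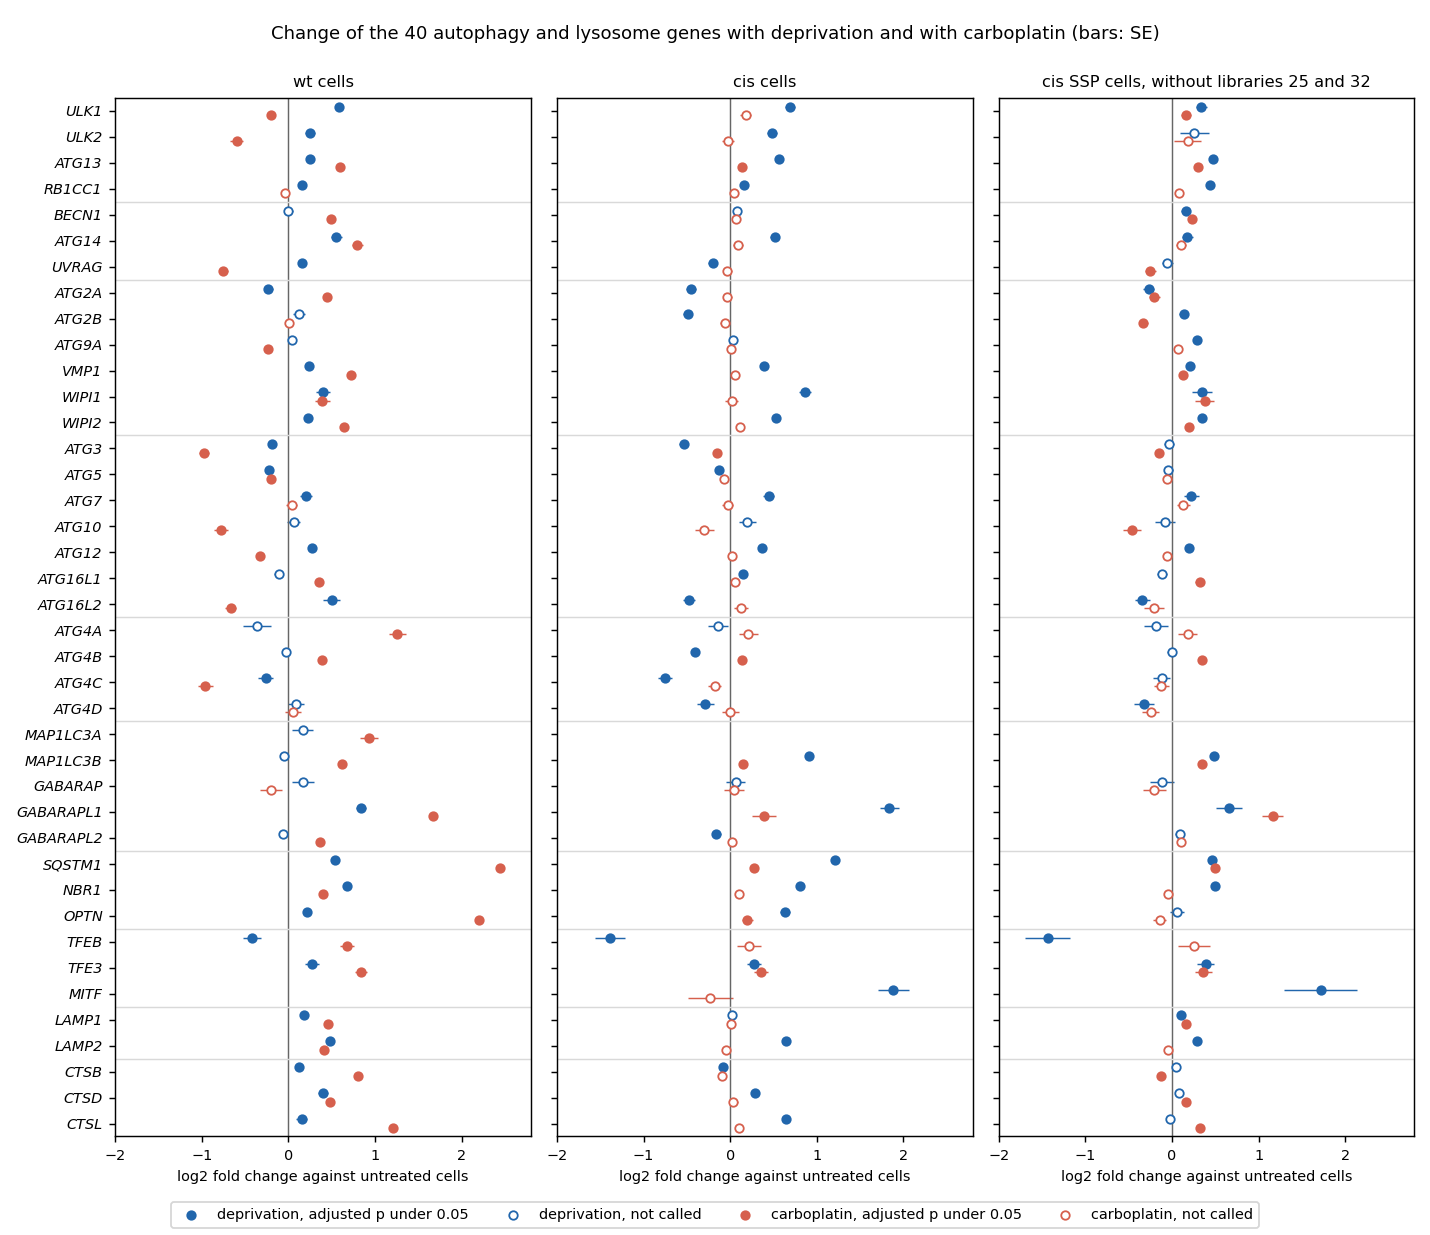
Log2 fold change against untreated cells of the same line (x axis) for each of the 40 genes (y axis, grouped by role), with deprivation in blue and carboplatin in red, SE as bars, and filled points for genes called at an adjusted p under 0.05. In wt cells the red points reach 2.45 (SQSTM1) and -0.98 (ATG3), while in cis cells the red points stay within -0.30 and 0.39 and the blue points reach 1.88 (MITF) and -1.39 (TFEB). The cis SSP panel leaves out libraries 25 and 32.

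Compared directly, deprived and drug-treated wt cells differed in most members, as they did in most of all genes tested. The 2 treatments thus did not raise the members alike, and a difference between them was not particular to the members. In the 2 single comparisons above, 15 of 39 members rose in both, 3 fell in both and 7 went opposite ways. Of those 15, 11 were higher with carboplatin in the direct comparison. The single comparisons share the 3 untreated wt libraries, so these counts do not measure agreement, and the share over all genes was not computed. The direct comparison uses none of these libraries. Of 39 members tested in wt -SG against wt carbo cells, 13 were higher with deprivation, 20 were higher with carboplatin and 6 were not called. Of all genes tested 38.2% were called higher with deprivation and 37.6% higher with carboplatin, and the median of the members was -0.25. OPTN, SQSTM1 and ATG4A were highest on the carboplatin side, with log2 differences of -1.98 (SE 0.0332, adjusted p = 1.62e-24), -1.92 (SE 0.0298, adjusted p = 4.58e-25) and -1.63 (SE 0.109, adjusted p = 1.31e-12). TFEB differed by -1.10 (SE 0.0943, adjusted p = 1.47e-10), CTSL by -1.06 (SE 0.0537), GABARAPL1 by -0.83 (SE 0.0461) and MAP1LC3B by -0.67 (SE 0.0323). On the deprivation side stood ATG16L2 at 1.16 (SE 0.0939, adjusted p = 2.86e-07), UVRAG at 0.91 (SE 0.0530, adjusted p = 9.80e-14), ULK2 at 0.85 (SE 0.0670, adjusted p = 3.55e-11) and ULK1 at 0.77 (SE 0.0418, adjusted p = 2.04e-14). These ATG16L2, UVRAG, ULK2 and ULK1 transcripts rose with deprivation, by 0.50, 0.16, 0.25 and 0.58, and fell with carboplatin, by 0.66, 0.75, 0.60 and 0.20. TFEB and ATG2A went the other way in both single comparisons. The members not called in the direct comparison included CTSD, at -0.08 (SE 0.0474, adjusted p = 0.15), and LAMP2, at 0.07 (SE 0.0319, adjusted p = 0.0645).

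**Figure D3:**
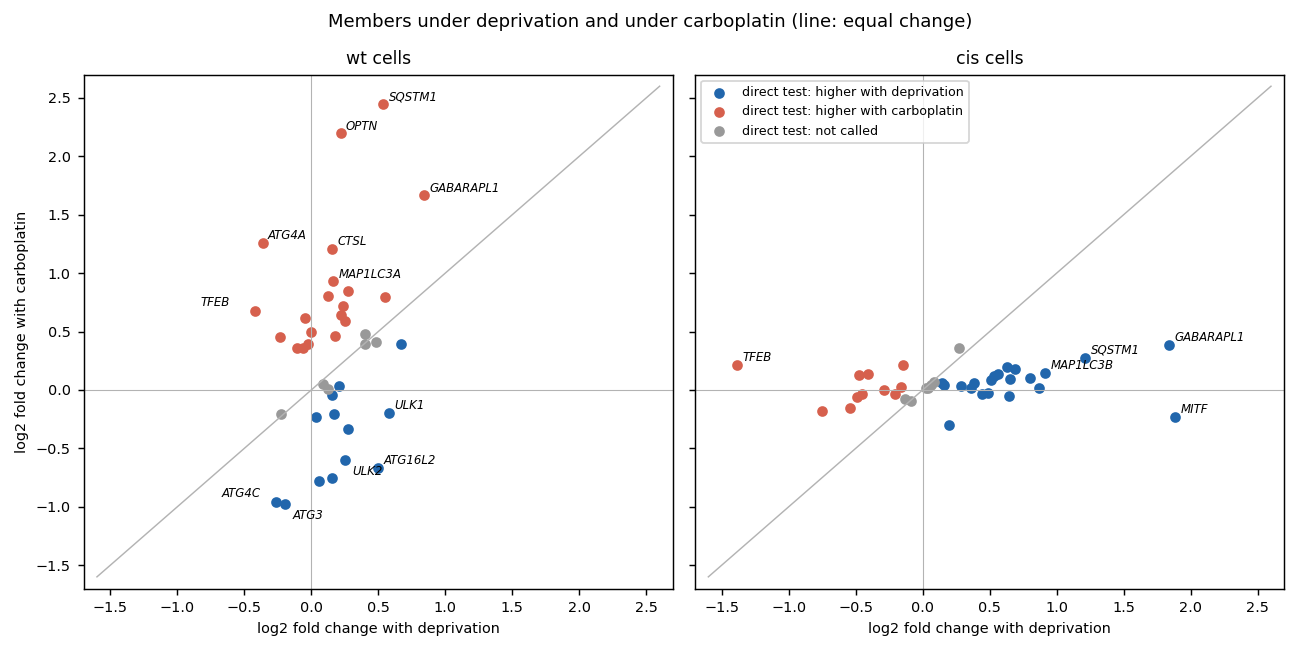
Log2 fold change with carboplatin (y axis) against that with deprivation (x axis) for 39 genes in wt cells and 39 in cis cells, coloured by the direct test of deprived against drug-treated cells. In wt cells SQSTM1 and OPTN lie far above the line of equal change and ULK1, ULK2 and ATG16L2 below it, and in cis cells the genes spread along the deprivation axis. Both axes share the untreated libraries of the line.

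With both changes together, the members of largest change in wt cells were SQSTM1, OPTN and GABARAPL1, as with the drug alone. In wt -SG carbo against wt cells 24 of 39 members rose and 10 fell, where 33.8% of all genes were called higher and 33.9% lower, with a member median of 0.48. SQSTM1 was at 467, 464 and 460 CPM with a log2 fold change of 2.61 (SE 0.0506, adjusted p = 4.18e-10), OPTN at 251, 254 and 257 CPM with 2.30 (SE 0.0514, adjusted p = 7.22e-10), and GABARAPL1 at 75.2, 82.8 and 76.4 CPM with 1.81 (SE 0.0622, adjusted p = 7.93e-09). ULK1 was at 54.2, 54.5 and 50.5 CPM and fell by 0.16, although deprivation alone raised it. ATG4C, ATG3 and ATG16L2 fell most, by 1.06 (SE 0.106), 0.94 (SE 0.0634) and 0.88 (SE 0.0948). Without library 11, in which RB1CC1 was at 96.8 CPM against 149 and 151 CPM in libraries 10 and 12, 24 members were called higher and 10 lower. Whether the 2 changes added up was not tested.

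In cis cells more members were called with deprivation than with carboplatin, as was so for all genes tested. In cis -SG against cis cells 21 of 39 members tested rose, 12 fell and 6 were not called, where 37.6% of all genes were called higher and 37.4% lower. The median of the members was 0.20 against 0.012 over all genes, and 4 members changed by more than 1. The epithelial list summed to 16.7 to 19.9 CPM in cis and 44.9 to 48.4 CPM in cis -SG libraries, and its part in the result was not tested. The 4 initiation genes and the 3 cargo receptors rose, as in wt cells, while 3 of the 4 ATG4 protease genes fell and none rose.

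GABARAPL1 had the largest rise after MITF. It was at 4.29, 4.11 and 3.78 CPM in cis and at 13, 13.6 and 16.1 CPM in cis -SG libraries, a log2 fold change of 1.84 (SE 0.112, adjusted p = 1.43e-19). SQSTM1 went from 103, 107 and 106 CPM to 236, 248 and 238 CPM, with 1.22 (SE 0.0318, adjusted p = 1.14e-33). MAP1LC3B went from 106, 102 and 104 CPM to 189, 199 and 188 CPM, with 0.92 (SE 0.0329, adjusted p = 3.08e-28). All 3 transcripts were higher in each deprived library than in any untreated one. ULK1 was at 30.7, 28.5 and 28.1 CPM in cis and at 44.8, 47.7 and 45.5 CPM in cis -SG libraries, a log2 fold change of 0.69 (SE 0.0532, adjusted p = 5.89e-16). WIPI1, which binds the lipid made by the class III kinase, NBR1 and LAMP2, a lysosomal membrane protein, rose by 0.87 (SE 0.0700), 0.80 (SE 0.0362) and 0.65 (SE 0.0340).

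The MiT/TFE genes moved apart. MITF (chromosome 3, 69788607 to 70017487) was at 1.39, 1.52 and 1.24 CPM in cis and at 4.57, 6.02 and 4.52 CPM in cis -SG libraries, a log2 fold change of 1.88 (SE 0.182, adjusted p = 8.18e-13). TFEB was at 5.21, 6.17 and 4.23 CPM in cis and at 2.21, 1.64 and 2.00 CPM in cis -SG libraries, with -1.39 (SE 0.170, adjusted p = 6.98e-10). Neither gene's libraries overlapped between the groups, and both levels are low. TFE3 rose by 0.27 (SE 0.0817, adjusted p = 0.00283). ATG4C fell from 20.5, 18.6 and 19.6 CPM to 12.4, 10.5 and 11.2 CPM, with -0.75 (SE 0.0803, adjusted p = 1.74e-11), and ATG3 from 54.4, 53.4 and 58.9 CPM to 37.9, 38.2 and 36.6 CPM, with -0.54 (SE 0.0492, adjusted p = 1.44e-13). CTSD was at 39.2, 37.7 and 37.9 CPM in cis and at 43.1, 46.7 and 47.5 CPM in cis -SG libraries and rose by 0.29 (SE 0.0508, adjusted p = 2.45e-06). LAMP1 was not called, at 158, 161 and 157 CPM against 159, 159 and 156 CPM and a log2 fold change of 0.02 (SE 0.0313, adjusted p = 0.547).

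**Figure D4:**
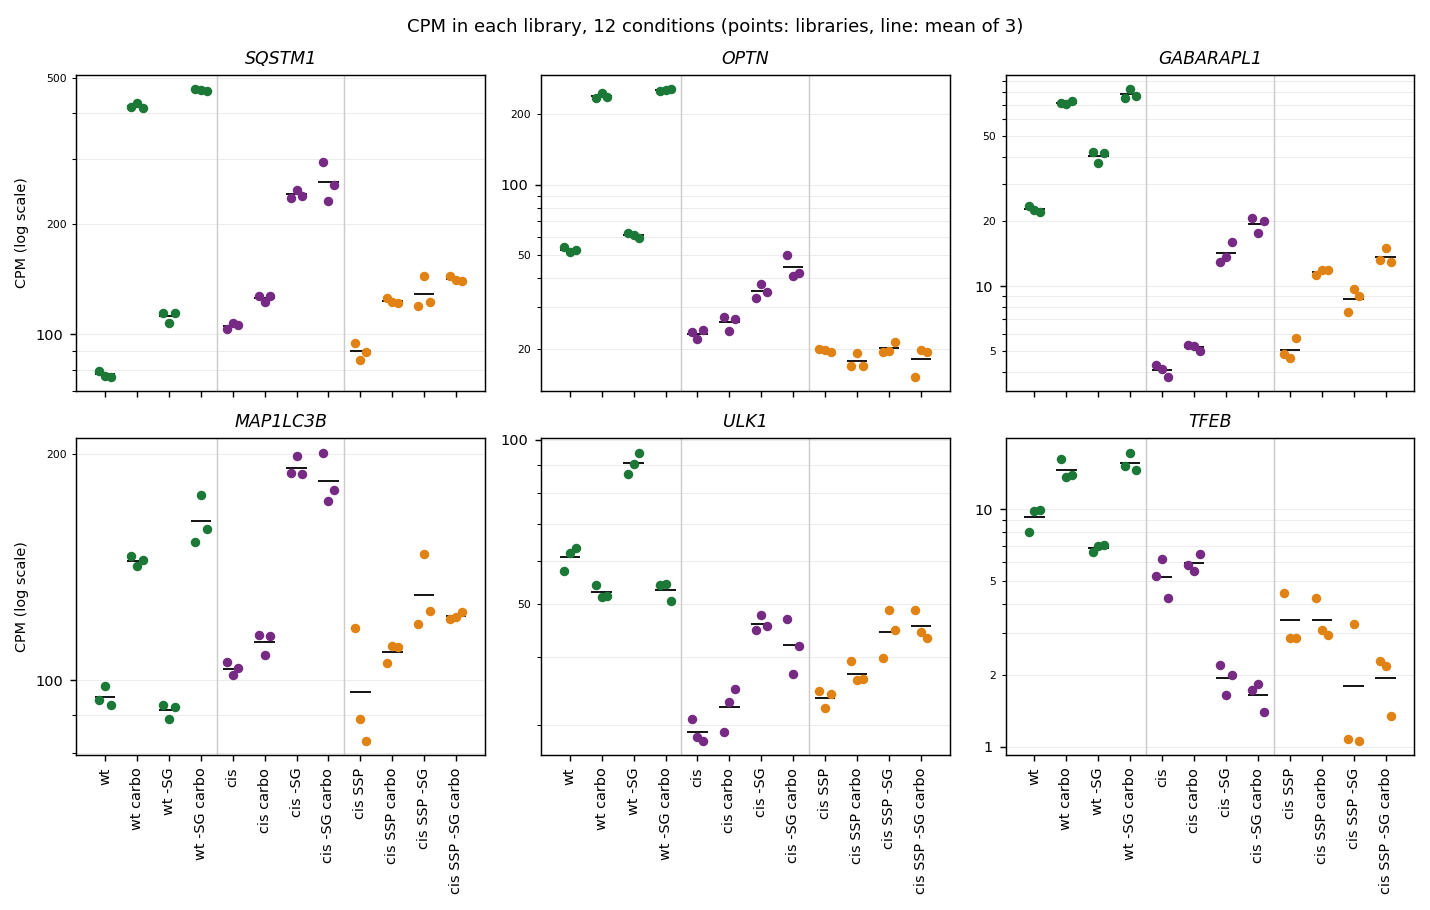
CPM (log axis) of SQSTM1, OPTN, GABARAPL1, MAP1LC3B, ULK1 and TFEB in each of the 36 libraries, by condition, with the mean of 3 libraries as a line. SQSTM1 lies between 413 and 467 CPM in the wt libraries with carboplatin and between 231 and 295 CPM in the deprived cis libraries, and TFEB is at 1.39 to 2.21 CPM in the 6 deprived cis libraries.

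With carboplatin alone, 7 of 39 members rose in cis cells and 1 fell, where 9.27% of all genes were called higher and 10.8% lower. Of the members tested 17.95% were higher, above the share of all genes, and 2.56% lower, below it, on few calls. The median of the members was 0.04, and 31 were not called. The members called higher were SQSTM1, GABARAPL1, TFE3, OPTN, MAP1LC3B, ATG4B and ATG13. SQSTM1 was at 127, 122 and 127 CPM, above every cis library, with a log2 fold change of 0.28 (SE 0.0332, adjusted p = 3.65e-07). TFE3 went from 12.6, 13.7 and 12.2 CPM to 16.3, 15.7 and 16.5 CPM, with 0.36 (SE 0.0795, adjusted p = 0.00155). GABARAPL1 was at 5.34, 5.28 and 4.99 CPM, with 0.39 (SE 0.135, adjusted p = 0.0413), and was not called in any of the 6 fits that left out 1 library. ATG3 was at 48.3, 48.2 and 50.3 CPM with -0.16 (SE 0.0471, adjusted p = 0.0182), and was not called without the third cis library or without the first cis carbo library (adjusted p = 0.113 and 0.0770). ULK1 was at 29.1, 33 and 34.9 CPM and overlapped the cis libraries, with 0.18 (SE 0.0654, adjusted p = 0.0526). TFEB, LAMP1 and CTSD were at 0.22, 0.01 and 0.04 (adjusted p = 0.296, 0.824 and 0.686), with libraries that overlapped. With the DESeq2 test 3 members were called, with 1 fit over the 36 libraries 1 member, and without the first or without the third cis carbo library 5.

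Compared directly, deprived cis cells differed from drug-treated cis cells in 32 of 39 members, 21 higher with deprivation and 11 lower, where 36.7% of all genes were called higher and 36.6% lower. MITF, GABARAPL1 and SQSTM1 were higher with deprivation by 2.12 (SE 0.198, adjusted p = 9.70e-11), 1.46 (SE 0.108, adjusted p = 6.32e-13) and 0.95 (SE 0.0294, adjusted p = 8.17e-22). TFEB, ATG16L2 and ATG4C were lower by -1.59 (SE 0.156, adjusted p = 2.85e-10), -0.59 (SE 0.0586, adjusted p = 4.66e-10) and -0.56 (SE 0.0836, adjusted p = 7.81e-07). TFEB was thus higher with the drug than with deprivation in both lines, whereas SQSTM1, OPTN, MAP1LC3B and GABARAPL1 were higher with the drug in wt cells and higher with deprivation in cis cells. With both changes, in cis -SG carbo against cis cells, 22 of 39 members rose and 10 fell, where 36.6% of all genes were called higher and 37% lower. GABARAPL1 reached 20.8, 17.6 and 20.1 CPM with 2.35 (SE 0.0986, adjusted p = 1.35e-11), SQSTM1 295, 231 and 255 CPM with 1.38 (SE 0.0488), and OPTN 50.3, 40.9 and 42.3 CPM with 1.02 (SE 0.0632). TFEB was at 1.72, 1.84 and 1.39 CPM with -1.57 (SE 0.197, adjusted p = 3.58e-06). Without libraries 23 and 24, which leaves 1 library assumed to vary like the untreated ones, 31 members were called, 22 higher and 9 lower.

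**Figure D5:**
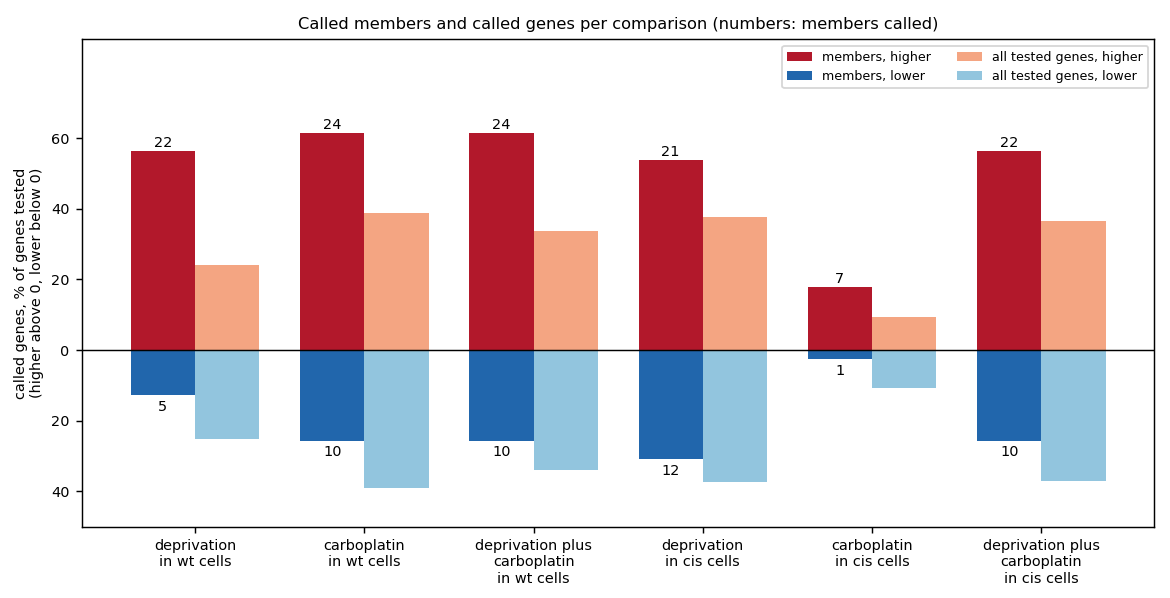
Members called higher (above 0) and lower (below 0) as a percentage of members tested, beside the same for all genes tested, in 6 comparisons with untreated wt or cis cells, and with the number of members called printed at each bar. Members are called higher more often than lower in each, and the bars for carboplatin in cis cells are the shortest, with 7 members higher and 1 lower.

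In cis SSP cells hardly any member was called with all libraries. Deprivation called 0 of 38 members (7 at an unadjusted p under 0.05, and 0 by DESeq2), where 0.0218% of all genes were called higher and 0% lower. Carboplatin called 1 of 38, GABARAPL1, where 1.97% of all genes were called higher and 0.749% lower. Both changes together called GABARAPL1 and SQSTM1 higher, of 38, where 1.5% of all genes were called higher and 0.537% lower. Deprived against drug-treated cis SSP cells gave 0 of 39 (8 at an unadjusted p under 0.05, and 1 by DESeq2), where 1.6% of all genes were called higher and 2.64% lower. GABARAPL1 was at 4.81, 4.61 and 5.76 CPM in cis SSP libraries, 11.3, 11.9 and 11.9 CPM with carboplatin, 7.60, 9.67 and 8.97 CPM with deprivation and 13.2, 15 and 12.9 CPM with both. No treated library overlapped the untreated ones, and the log2 fold changes were 1.20 (SE 0.124, adjusted p = 0.00943) with carboplatin, 0.78 (SE 0.162, adjusted p = 0.357) with deprivation and 1.44 (SE 0.141, adjusted p = 0.00846) with both. SQSTM1 was at 94.6, 85.3 and 89.5 CPM, 125, 122 and 122 CPM, 119, 144 and 123 CPM and 144, 140 and 140 CPM in the same order of conditions. The GABARAPL1 call with carboplatin was lost without library 26 or without any 1 cis SSP carbo library (adjusted p from 0.0530 to 0.0918). The log2 fold change of SQSTM1 with both was 0.66 (SE 0.0943, adjusted p = 0.0268), and the calls of both genes were lost without any 1 library of cis SSP -SG carbo.

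Without libraries 25 and 32 the estimated spread was smaller and many more members were called. With deprivation 20 of 39 members then rose and 4 fell (18.9% and 17% of all genes), with carboplatin 15 of 38 rose and 6 fell (21.9% and 19.2% of all genes), and with both 20 rose and 7 fell (20.9% and 17.5% of all genes). Deprivation raised GABARAPL1 by 0.66 (SE 0.147), NBR1 by 0.49 (SE 0.0363), MAP1LC3B by 0.49 (SE 0.0422), SQSTM1 by 0.46 (SE 0.0404) and ULK1 by 0.34 (SE 0.0650). TFEB fell by 1.44 (SE 0.257, adjusted p = 6.76e-05) and MITF rose by 1.72 (SE 0.423, adjusted p = 0.00209), the directions seen in cis cells. TFEB was at 3.29 CPM in library 32, above the 1.07 and 1.06 CPM of libraries 31 and 33. MITF had only 4 and 8 counts in libraries 26 and 27 and 24 and 19 in libraries 31 and 33. Library 32 had 6 counts of MITF, as did library 25, and with all libraries MITF was not tested for deprivation. Carboplatin raised GABARAPL1 by 1.16 (SE 0.118), SQSTM1 by 0.49 (SE 0.0359) and MAP1LC3B by 0.34 (SE 0.0395), while OPTN, at -0.14 (SE 0.0771, adjusted p = 0.142), was not called. Compared directly without these libraries, 17 of 39 members were higher with deprivation and 6 with carboplatin (25.5% and 25.3% of all genes). NBR1 was higher with deprivation by 0.54 (SE 0.0337), GABARAPL1 and TFEB were lower by -0.50 (SE 0.104) and -1.69 (SE 0.238), and SQSTM1 was at -0.03 (SE 0.0341, adjusted p = 0.51).

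The untreated lines differed in about the same share of members as of all genes. In cis against wt cells 17 of 40 members tested were higher, 14 lower and 9 not called, where 39.4% of all genes were called higher and 39.1% lower, and the member median was 0.09. CTSL, VMP1 and ATG14, a subunit of the class III kinase complex, were higher in cis cells by 1.69 (SE 0.0475, adjusted p = 3.28e-32), 0.996 (SE 0.0299, adjusted p = 4.78e-31) and 0.74 (SE 0.0625, adjusted p = 1.80e-14). CTSL was at 23.5, 23.9 and 23.4 CPM in wt and at 79.0, 74.7 and 80.2 CPM in cis libraries. GABARAPL1 and OPTN were lower in cis cells by -2.52 (SE 0.0937, adjusted p = 1.95e-27) and -1.22 (SE 0.0524, adjusted p = 4.67e-25), and ULK1 and TFEB by -1.10 and -0.86. MAP1LC3A (chromosome 20, 33134658 to 33148149), an LC3 form encoded apart from MAP1LC3B, had 334 counts over the 3 wt libraries and 1 over the 3 cis libraries. That is a ratio of 320 per total count, with an exact 95% counting interval of 57.0 to 12700 that covers counting error only. Over all conditions MAP1LC3A had 103 to 257 counts in each of the 12 wt libraries and 0 to 3 in each of the 24 libraries of cis and cis SSP cells.

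In cis SSP against cis cells 3 of 39 members were higher and 5 lower, where 15.8% of all genes were called higher and 13.3% lower, and without library 25 of the cis SSP cells 10 were higher and 16 lower (32.9% and 32.5% of all genes). ULK2 was the farthest. It was at 22.6, 23.9 and 25.3 CPM in cis and at 3.25, 3.83 and 4.51 CPM in cis SSP libraries, a log2 fold change of -2.60 (SE 0.149, adjusted p = 0.000135), and of -2.48 (SE 0.109) without library 25. RB1CC1, the scaffold of the ULK1 complex, was at 220, 212 and 229 CPM in cis and at 49.4, 101 and 99.0 CPM in cis SSP libraries, with -1.38 (SE 0.281, adjusted p = 0.0138) and -1.10 (SE 0.0372) without library 25, which was the lowest. WIPI1 was lower by -0.91 (SE 0.129, adjusted p = 0.00344). CTSD was higher, at 149, 80 and 80.5 CPM against 39.2, 37.7 and 37.9 CPM, with 1.45 (SE 0.253, adjusted p = 0.00793) and 1.11 (SE 0.0484) without library 25, which was the highest. CTSB and WIPI2 were higher by 0.54 (SE 0.0940, adjusted p = 0.00751) and 0.42 (SE 0.113, adjusted p = 0.0344), and the call of each was lost without any 1 cis library (adjusted p from 0.0502 to 0.0572 for CTSB and from 0.113 to 0.152 for WIPI2). The initiation gene ULK1 was at 34.6, 32.2 and 34.2 CPM in cis SSP libraries and was not called with all libraries, at 0.23 (SE 0.0952, adjusted p = 0.112).

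The responses themselves differed between cis and wt cells, by a test of the difference over the 12 libraries concerned. For deprivation, 15 of 40 members had a higher log2 response in cis cells and 11 a lower one, where 27.1% of all genes were called higher and 26.9% lower, and the member median was 0.11. GABARAPL1, MAP1LC3B and SQSTM1 responded more in cis cells, by 1.01 (SE 0.130, adjusted p = 1.99e-08), 0.98 (SE 0.0463, adjusted p = 5.25e-20) and 0.69 (SE 0.0467, adjusted p = 1.76e-15). ATG16L2, TFEB and ATG2B had a lower signed log2 response in cis cells, by -0.96 (SE 0.158, adjusted p = 0.000419), -0.95 (SE 0.206, adjusted p = 0.000166) and -0.60 (SE 0.0830, adjusted p = 4.89e-07). For TFEB this was a larger fall in cis cells (-1.39 against -0.42), for ATG16L2 a fall against a rise (-0.48 against 0.50), and for ATG2B a fall of 0.49 in cis cells against 0.13, not called, in wt cells. ULK1, by contrast, was not called in this test, at 0.13, after rises of 0.58 and 0.69.

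For carboplatin, 11 of 40 members had a higher response in cis cells and 23 a lower one, where 30.3% of all genes were called higher and 27.2% lower. The member median was -0.35 against 0.019 over all genes. SQSTM1, OPTN and GABARAPL1 responded less in cis cells, by -2.17 (SE 0.0419, adjusted p = 9.03e-46), -1.99 (SE 0.0686, adjusted p = 2.02e-33) and -1.27 (SE 0.140, adjusted p = 8.36e-12). ATG3, ATG16L2 and ATG4C, which fell in wt cells, had higher values in cis cells by 0.83 (SE 0.0707, adjusted p = 1.24e-15), 0.80 (SE 0.126, adjusted p = 3.65e-05) and 0.79 (SE 0.119, adjusted p = 6.61e-08). CTSL, CTSB, LAMP1, LAMP2 and CTSD all had lower responses in cis cells, from -1.11 to -0.43, and TFEB and TFE3 had -0.45 and -0.48.

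Wider lists of the same pathway gave the surroundings. Of 16 subunits of the V-ATPase, the proton pump of the lysosome, 15 were tested in wt cells, and with carboplatin 12 rose and 2 fell (median 0.66), with deprivation 4 rose and 2 fell (median 0.0033). Over all genes 38.9% were called higher and 39% lower with carboplatin and 24.1% and 25.1% with deprivation in wt cells, which is the background of the wider lists too. ATP6V0E1 and ATP6V1D rose with carboplatin by 0.91 each, while ATP6V1A, a catalytic subunit, fell by 0.40. The carboplatin response of V-ATPase genes was lower in cis than in wt cells for 12 of 15 and higher for 2. Of all genes 27.2% were called lower and 30.3% higher in that test. Of 50 other lysosomal genes, 28 rose and 5 fell with deprivation in wt cells, and 30 rose and 17 fell with carboplatin. The largest rises with carboplatin were those of the protease CTSF at 3.13 (SE 0.175) and the fucosidase FUCA1 at 2.82 (SE 0.0773), and GUSB, a glucuronidase, fell by 1.005. In cis cells deprivation raised 16 and lowered 20 of 48 tested, near the 37.6% and 37.4% of all genes, with IDUA at 2.18 (SE 0.0856) and PSAP, the saposin precursor, at 0.88 (SE 0.0267).

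Among 30 other autophagy genes, 29 were tested with deprivation in wt cells, where 10 rose and 7 fell (24.1% and 25.1% of all genes), and 30 in cis cells, where 16 rose and 5 fell (37.6% and 37.4% of all genes). CCPG1, a receptor for turnover of the endoplasmic reticulum, rose by 1.29 (SE 0.0779) in wt and by 0.99 (SE 0.0324) in cis cells, and WDR45 by 1.36 (SE 0.135) in cis cells. With carboplatin in wt cells 17 rose and 10 fell, led by ZFYVE1 at 1.68 (SE 0.0611) and TMEM41B, a partner of VMP1, at 1.25 (SE 0.0225). TMEM41B also rose by 0.55 (SE 0.0281) in cis cells and by 1.16 (SE 0.0897, adjusted p = 0.00452) in cis SSP cells. Of 27 genes of nutrient sensing through mTORC1, 25 were tested with deprivation in wt cells, where 10 rose and 5 fell. In cis cells 10 rose and 9 fell of 25 with deprivation, near the shares of all genes. With carboplatin 16 rose and 10 fell of 27 in wt cells (38.9% and 39% of all genes). In cis cells 3 rose and 0 fell of 25 with carboplatin (9.27% and 10.8% of all genes). From this list DDIT4, an inhibitor of mTORC1, rose with deprivation by 0.76 (SE 0.0628) in wt and by 2.35 (SE 0.0424) in cis cells. SESN2, a leucine-binding regulator of the same kinase, rose with deprivation by 1.81 (SE 0.0362) in cis cells and with carboplatin by 1.14 (SE 0.0267) in wt cells. Its relative SESN1 rose with carboplatin in all 3 lines, by 0.74 (SE 0.0596) in wt, 0.69 (SE 0.0870) in cis and 0.88 (SE 0.119) in cis SSP cells.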

How the data were processed

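RNA of 36 libraries of A2780 cells, made with a kit for total RNA, was sequenced as single-end reads by the authors, who aligned it to GRCh37.p13 (hg19) with STAR and counted reads per GENCODE gene with HTSeq. DESeq and DESeq2 are also named in the submitters' processing notes, without versions, and the strand setting of the counting is not given in the sources used here. The deposited values are raw counts per gene. The rows for reads on no gene (4.21% to 17.9% of reads on no feature) were left out of library sizes and tests. Gene names and positions came from a GENCODE annotation mapped to GRCh37, and promoters from RefSeq.

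For each of 16 comparisons, edgeR 4.0.16 (R 4.3.3) was run on the libraries of the conditions compared with TMM scaling, the filterByExpr filter and the robust quasi-likelihood test. P-values were adjusted by Benjamini and Hochberg over all genes tested, with calls at 0.05, and the SE was the log2 fold change over the square root of the F statistic. CPM used TMM factors over all 36 libraries. Named members were ULK1, SQSTM1, MAP1LC3B, GABARAPL1, TFEB, LAMP1 and CTSD throughout, plus in each comparison at most 3 called members in each direction with the largest change, provided their counts averaged 50 or more and their CPM did not overlap between groups. From each wider list at most 2 per direction were named by the same rule, and the remaining names were chosen after their values were seen. The members and the wider lists were chosen with earlier results of these data known. Alternatives were DESeq2 1.42.0, its size factors, total counts, no filter, 1 fit over 36 or 12 libraries, a length trend removed, a fold threshold and left-out libraries. No 2 libraries of a condition held identical counts. On simulated data for carboplatin in wt cells, 200 of 200 genes changed by 1 on the log2 scale were recovered at a dispersion of 0.001 and 181 of 200 at 0.03. For cis SSP against cis cells these numbers were 200 and 176, and for the carboplatin response of cis against wt cells 199 and 74. Smaller changes were not simulated, nor was the dispersion of 0.0682 estimated for deprivation in cis SSP cells. Figures were drawn with matplotlib 3.10.9.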

Additional observations from a re-analysis of the deposited data

Results flagged for a closer look

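The responses of cis and wt cells were compared by a test of the difference, and the differences past the threshold are given as values. For deprivation 26 of 40 members were called, where 27.1% of all genes were called higher and 26.9% lower. GABARAPL1 (1.01), MAP1LC3B (0.98) and SQSTM1 (0.69) had a higher log2 response in cis cells, and ATG16L2 (-0.96), TFEB (-0.95) and ATG2B (-0.60) a lower one. For ATG16L2 and ATG2B the values were 0.50 and 0.13 in wt cells and -0.48 and -0.49 in cis cells, with ATG2B not called in wt cells, and TFEB fell more in cis cells.

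For carboplatin 34 of 40 members were called, where 30.3% of all genes were called higher and 27.2% lower. ATG3 (0.83), ATG16L2 (0.80) and ATG4C (0.79) had a higher log2 response in cis cells, and SQSTM1 (-2.17), OPTN (-1.99) and GABARAPL1 (-1.27) a lower one. The fibroblast markers summed to 518 to 550 CPM in untreated wt and 4.91 to 5.79 CPM in untreated cis libraries, and to 1599 to 1629 CPM in wt carbo libraries, and their part in these differences was not tested.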

How the results depend on the processing

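Counts of members called are given as values under each alternative, and the cause of a change was not tested unless the alternative itself states it. A required log2 fold change of 1 or more in size left 0, 5, 8 and 6 members in wt cells (deprivation, carboplatin, both, direct), 4, 0, 5 and 3 in cis cells, 1 with both changes in cis SSP cells, 6 in cis against wt, 4 in cis SSP against cis, and 2 and 5 in the deprivation and carboplatin responses. With 1 fit over the 36 libraries, deprivation in wt cells gave 14 members in place of 27, carboplatin in cis cells 1 in place of 8 and the deprivation response 15 in place of 26. That fit gave 13, 11, 16 and 15 members in cis SSP cells (deprivation, carboplatin, both, direct) in place of 0, 1, 2 and 0, and 21 in place of 8 in cis SSP against cis. With the trend over transcript length removed these 5 counts were 2, 5, 6, 7 and 15, and without libraries 25 and 32 they were 24, 21, 27, 23 and 26. One fit over the 12 cis SSP libraries gave 3, 2 and 3 for deprivation, carboplatin and the direct comparison. DESeq2 gave 3 for carboplatin in cis cells, 2 for carboplatin and 1 for the direct comparison in cis SSP cells, and no filter on low counts gave 1 with both changes in cis SSP cells. Other alternatives stayed within 1.5 times.

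Leaving out 1 library gave 24 to 29, 34 to 35, 32 to 34 and 31 to 35 members in wt cells, 32 to 34, 5 to 8, 28 to 31 and 30 to 31 in cis cells, and 0 to 0, 0 to 21, 0 to 27 and 0 to 23 in cis SSP cells. It gave 30 to 33 in cis against wt, 4 to 26 in cis SSP against cis, 23 to 27 in the deprivation response and 31 to 33 in the carboplatin response. The value of 5 came without the first or the third cis carbo library, and the highest values in cis SSP cells came without library 25, or without library 32 in the direct comparison.

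Directions turned for a few genes in these settings. With the length trend removed GABARAPL2 was at 0.0501, 0.20 and 0.0411 in cis cells (deprivation, both, direct) and LAMP2 at 0.20 in cis SSP against cis. Without libraries 25 and 32, and equally without library 25 alone, ATG2B was at -0.33 and -0.29 and CTSD at 0.16 and 0.18 with carboplatin and with both in cis SSP cells, GABARAPL2 at 0.20 with both, and LAMP2 at 0.10 and ATG4B at -0.24 in cis SSP against cis. Over the fits without 1 library, ATG2B ran from -0.33 to 0.23 and CTSD from -0.36 to 0.16 with carboplatin in cis SSP cells, and with both ATG2B ran from -0.29 to 0.28, CTSD from -0.33 to 0.18 and GABARAPL2 from -0.18 to 0.20. In cis SSP against cis, LAMP2 ran from -0.15 to 0.10 and ATG4B from -0.24 to 0.18.

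No paired analysis was possible because the libraries are numbered 1 to 36 across conditions, with no replicate number that conditions share. Depth limited the lowest genes, MITF and MAP1LC3A among them, whose counts were at or near 0 in some lines.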
